A study of Mus musculus with 45 samples.

Results

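The copy number of mammary tumors driven by a Ras transgene was compared with that of tumors driven by the receptor upstream of Ras. Members were the arrays whose labels give the tumor's model as MMTV-H-Ras (called MMTV-HRas here, n = 5) or MMTV-Her2/neu (n = 5), 10 of the 45 tumors and 2 of the 8 models in the series. All 10 were primary invasive mammary tumors from female mice, with 1 deposited array each. Both transgenes are named for the mouse mammary tumor virus (MMTV) promoter, which is active in mammary epithelium. The labels used here give no age, strain, founder line or tumor fraction, and no number that pairs tumors of the 2 models. Tumor DNA was set against DNA of pooled spleen on a 2-colour Agilent 44K array for comparative genomic hybridization, which reads the copy number of each probe's locus as a ratio of tumor to reference.

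Her2, also called ErbB2 or neu, is a receptor tyrosine kinase of the epidermal growth factor receptor family. Active receptors recruit Grb2 and Sos, which load Ras with GTP, and Ras in turn drives a cascade of protein kinases that begins with Raf, and the phosphoinositide 3-kinase pathway. A Ras transgene enters this cascade below the receptor. Mammary tumors of either kind form in the luminal epithelium of the gland, and gains and losses of chromosomes are acquired as they grow.

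All values are log2 ratios from which each array's autosomal median was subtracted, and Cy3 was read as the tumor and Cy5 as the reference. The labels give the dyes the other way round, but the sign of the authors' interval table runs with Cy3 over Cy5, so the direction is likely and not settled, and with the dyes as labelled every gain below is a loss. For scale, 1 extra copy in every cell of a diploid tumor would give 0.58, and loss of 1 copy -1. In bulk tumor DNA, a smaller share of tumor cells and a change carried by some of the tumor cells cannot be told apart.

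The arrays of the 2 models also differed in signal. Of the MMTV-HRas arrays, 4 lay on 1 slide, no slide held both models, and 1 scan day did, with Haras_An5_3RPT and H2N64. The median Cy3 signal was 6.32 ± 1.53 times its background in MMTV-HRas arrays and 10.1 ± 0.87 times in MMTV-Her2/neu arrays (mean ± SD, n = 5 each; two-sided exact permutation p = 0.00794, the smallest that 5 against 5 allows). The mean log2 ratio of chromosome X, which was left out of every comparison below, was 0.75 to 0.88 in MMTV-HRas arrays and 0.93 to 1.07 in MMTV-Her2/neu arrays, so the groups did not overlap there either. The part of slide, signal and chromosome X level in the results was not tested. Over 1 Mb autosomal bins, H2N53 resembled the C3(1)-Tag tumor C3TAg_5RPT (Pearson's r = 0.96 over 2057 bins) more than any tumor of its own model, and H2N61 resembled C3TAg_7RPT (r = 0.93). Whether arrays, DNA or labels are shared between these pairs was not tested, so the identity of 2 of the 5 MMTV-Her2/neu tumors is in doubt. The main comparisons are therefore also given without H2N53 and H2N61. The tumors that remain also resembled C3(1)-Tag tumors, H2N1 with C3TAg_5RPT (r = 0.82), H2NA with C3TAg_7RPT (r = 0.75) and H2N64 with C3TAg4 (r = 0.50), so that leaving the pair out does not remove this likeness.

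MMTV-HRas tumors carried gains and few losses, whereas 4 of 5 MMTV-Her2/neu tumors carried more lost than gained genome. A bin was called gained or lost when most of its probes lay in segments whose mean was 0.2 or more above or below 0. The gained share of 2057 autosomal bins was 20.8% in Haras_An5_3RPT, 26.8% in Hras_An1_3, 11.2% in Hras_An2_3, 27.3% in Hras_An3_3 and 29.4% in Hras_An4_3. The lost share of the same tumors was 15.3, 0.0486, 0.243, 0 and 0%. Losses in MMTV-HRas tumors were thus nearly all in Haras_An5_3RPT. In the MMTV-Her2/neu tumors H2N1, H2N53, H2N61, H2N64 and H2NA, the gained share was 21.4, 22.5, 7.34, 0.875 and 17.5%, and the lost share was 24.3, 31.9, 10.2, 0.535 and 30.5%. H2N64 had the smallest gained and altered shares of the 10 tumors.

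The lost share averaged 3.11 ± 6.79% in MMTV-HRas and 19.5 ± 13.6% in MMTV-Her2/neu tumors (SD, n = 5 each), a difference of -16.4 percentage points that missed the threshold of 0.05 (two-sided exact permutation p = 0.0556). It passed without H2N64 (-21.1 points, exact p = 0.0238) and without H2N53 and H2N61 (-15.3 points, exact p = 0.0357). The difference shrank to -6.56 points (exact p = 0.484) when each array was divided by its chromosome X mean, which was tried after seeing the data. The lost share was then 12.8 ± 17.3% and 19.3 ± 13.5% (SD, n = 5 each). Division by a mean under 1, as in every MMTV-HRas array, moves ratios away from 0. Chromosomes at less than 0.2 below 0 can then be called lost. In Hras_An1_3, chromosome 7 was at -0.17 and the chromosome X mean was 0.81. The part of such chromosomes in the rise was not tested. The gained share was 23.1 ± 7.37% against 13.9 ± 9.42% (exact permutation p = 0.143), and the altered share of any kind was 26.2 ± 9.03% against 33.4 ± 22.8% (exact permutation p = 0.54), so neither differed beyond the spread between tumors. The difference in gained share, 9.20 points, was 15.3 with each array centred on the density peak of its ratios, explained below, in place of the median (exact permutation p = 0.0556) and 9.86 without H2N53 and H2N61 (exact permutation p = 0.214). Within the scan day that held both models, the 1 MMTV-HRas tumor had the higher lost share, 15.3% against 0.535%, opposite to the difference of the means.

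**Figure D1:**
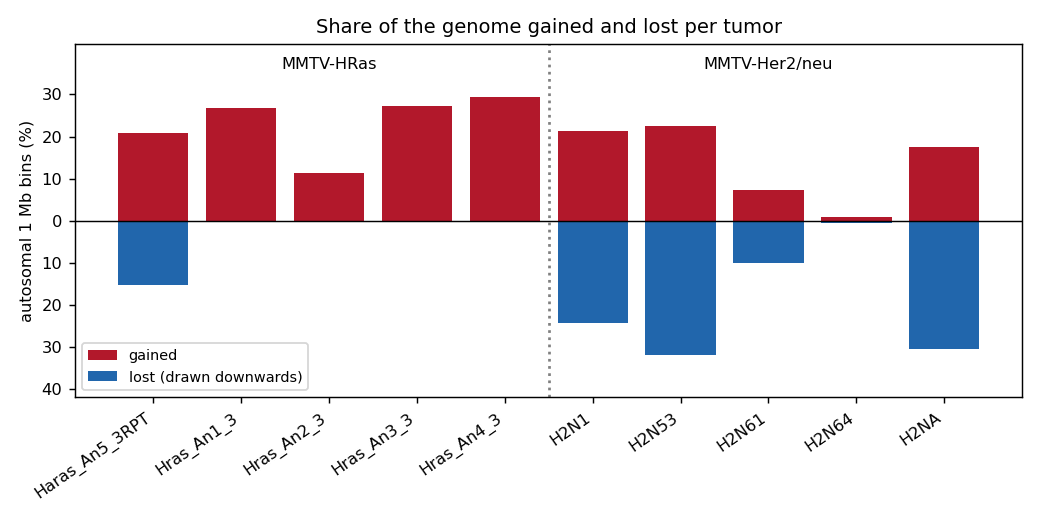
Percent of autosomal 1 Mb bins called gained (red, upwards) and lost (blue, downwards) in each of the 5 MMTV-HRas and 5 MMTV-Her2/neu tumors, 1 array each, with no error bars because each bar is 1 tumor. Of the MMTV-HRas tumors, Haras_An5_3RPT alone has a visible lost share (15.3%), while 4 of 5 MMTV-Her2/neu tumors lost 10.2 to 31.9%.

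The balance of gains and losses was set apart as a further measure after the values were seen. Gained bins made up 57.7, 99.8, 97.9, 100 and 100% of the altered bins of Haras_An5_3RPT, Hras_An1_3, Hras_An2_3, Hras_An3_3 and Hras_An4_3. In H2N1, H2N53, H2N61, H2N64 and H2NA they made up 46.8, 41.3, 41.9, 62.1 and 36.4%. The value of H2N64 rests on few bins, because only 1.41% of its bins were altered. The groups overlapped through Haras_An5_3RPT and H2N64, the pair scanned on the same day, and the means were 91.1 ± 18.7% and 45.7 ± 9.85% (SD, n = 5 each; two-sided exact permutation p = 0.0159). The difference of 45.4 percentage points was 42.6 without H2N53 and H2N61 (exact p = 0.0357) and 49.4 without H2N64 (exact p = 0.0159). Divided by the chromosome X mean of each array, which has the limit given above, it was 30.5 points, past the threshold no longer (exact p = 0.0635).

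Nearly every gain of an MMTV-HRas tumor took in a whole chromosome. An autosome counted as gained or lost where gained or lost segments covered 10% or more of its probes. On this count the 5 MMTV-HRas tumors had 23 gained autosomes, and in 22 of them at least 90% of the probes were gained. The exception was chromosome 19 in Haras_An5_3RPT, with 45.1%. Of the 19 gained autosomes of MMTV-Her2/neu tumors, 11 were gained over at least 90% of their probes. Losses were whole in 16 of 18 autosomes lost in MMTV-Her2/neu tumors and in 3 of the 4 lost in MMTV-HRas tumors, all 4 of which were in Haras_An5_3RPT. The number of gained autosomes per tumor was 4.6 ± 1.52 against 3.8 ± 2.39 (exact permutation p = 0.683), and the number of lost autosomes 0.8 ± 1.79 against 3.6 ± 2.07 (exact permutation p = 0.0635; SD, n = 5 each).

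Chromosomes 6, 15 and 17 were gained together in 4 of 5 MMTV-HRas tumors, and in the same 4. Hras_An2_3 was the exception, with gains of chromosomes 2 and 18 alone. Beyond the shared trio, Haras_An5_3RPT gained chromosomes 18 and 19, Hras_An1_3 gained 1 and 12, Hras_An3_3 gained 1 and 8, and Hras_An4_3 gained 2, 14 and 19. Haras_An5_3RPT was also the tumor with whole losses, of chromosomes 4, 12 and 16. In MMTV-Her2/neu tumors, gains of chromosomes 5, 17 and 18 recurred in 3 of 5 tumors each, so that 17 and 18 were recurrent gains of both models, and losses of chromosomes 7 and 10 recurred. Some of these gains were partial. Chromosome 17 was gained over 34.8% of its probes in H2N1 and 42.4% in H2N53, and chromosome 18 over 12.4% in H2NA. H2N1, H2N53, H2N61 and H2NA had lost chromosome 10 over at least 90% of its probes, and chromosome 7 likewise, apart from H2N61 with 75.7%. H2N1 and H2N53 further shared losses of chromosomes 2 and 13 and gains of 5, 16, 17 and 18, and their profiles were alike (r = 0.85 over 2057 bins). H2NA lost chromosomes 9, 11, 12 and 16 in addition to 7 and 10. The 10% definition also called chromosome 10 lost in H2N64, where 11.5% of the probes lay in lost segments, and in Haras_An5_3RPT, with 15.8%.

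**Figure D2:**
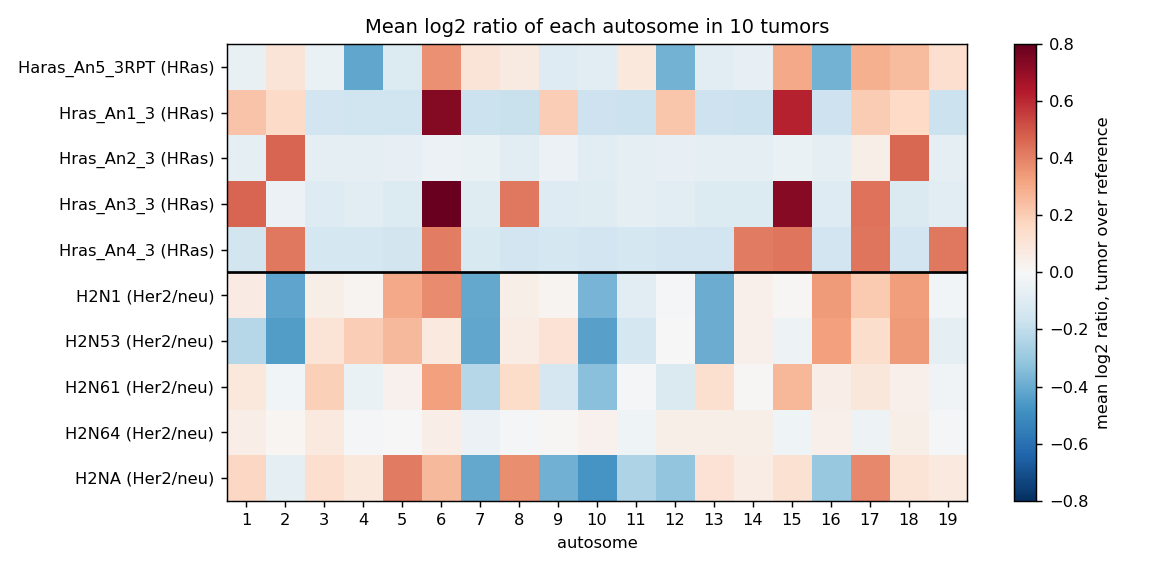
Mean log2 ratio of the probes of each autosome (columns) in the 5 MMTV-HRas tumors (above the line) and the 5 MMTV-Her2/neu tumors (below), red for higher and blue for lower than the array's median. Chromosomes 6, 15 and 17 are red in 4 MMTV-HRas tumors, and chromosomes 7 and 10 are blue in 4 MMTV-Her2/neu tumors.

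Tested chromosome by chromosome, no gain or loss passed after adjustment, in a design where a single split of 5 against 0 has a p of 0.00794 and an adjusted p of 0.302 over 38 tests. The adjusted tests thus say little about single chromosomes. Loss of chromosome 7 was called in 0 of 5 tumors with the HRas transgene and 4 of 5 with Her2/neu, and loss of chromosome 10 in 1 of 5 and 5 of 5. The chromosome 10 calls of Haras_An5_3RPT and H2N64 rested on 15.8 and 11.5% of the probes, at chromosome means of -0.08 and 0.03. The loss of either chromosome gave a two-sided Fisher exact p of 0.0476 and an adjusted p of 0.905 over 38 tests, and 2 of 38 (5.26%) had an unadjusted p of at most 0.05. Neither did without H2N53 and H2N61, with Fisher exact p = 0.107 for chromosome 7 and 0.143 for chromosome 10. Gain of chromosome 15 was called in 4 of 5 and 1 of 5 tumors (Fisher exact p = 0.206), and gain of chromosome 5 in 0 of 5 and 3 of 5 (p = 0.167). Chromosome 6 was called gained in 4 of 5 and 2 of 5 (Fisher exact p = 0.524). In MMTV-Her2/neu these were H2N1, with 99.8% of its probes, and H2N61, with 16.8%. Gain of chromosome 17 was common to both models, in 4 of 5 and 3 of 5 tumors, but covered only 34.8 and 42.4% of its probes in H2N1 and H2N53.

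The gained chromosomes of an MMTV-HRas tumor were not all at the same level. In Hras_An1_3, chromosomes 6 and 15 had mean log2 ratios of 0.74 and 0.62, while chromosomes 1, 12 and 17 were at 0.23, 0.22 and 0.20. In Hras_An3_3 the same chromosomes 6 and 15 were at 0.79 and 0.73, with chromosomes 1, 8 and 17 at 0.46, 0.42 and 0.43. Chromosomes 6 and 15 thus stood above the other gained chromosomes in these tumors. In Hras_An4_3 the 6 gained chromosomes lay within 0.41 to 0.43, and in Hras_An2_3 chromosomes 2 and 18 lay at 0.47 and 0.46. In Haras_An5_3RPT the 4 whole gains lay between 0.26 and 0.36. The whole gains of MMTV-Her2/neu tumors lay between 0.26 and 0.41.

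Centring sets the level of what is left unchanged. Where much of the genome is gained, the median of the array moves up and unaltered chromosomes fall below 0. The density peak of the smoothed ratios, which marks the most common state, lay at -0.005, -0.16, -0.035, -0.11 and -0.135 relative to the median in Haras_An5_3RPT, Hras_An1_3, Hras_An2_3, Hras_An3_3 and Hras_An4_3. It lay at 0.03, 0.09, 0.01, 0.005 and 0.065 in H2N1, H2N53, H2N61, H2N64 and H2NA. Centring on that peak raised the median difference between the models, taken over all bins, from 0.03 to 0.16. Chromosome differences are therefore given under both centrings. The list of gains depends on it too: in Hras_An1_3, chromosomes 2, 9 and 18, which were not called, were at 0.15, 0.20 and 0.16 with the median as centre and at 0.31, 0.36 and 0.32 with the peak, close to the called chromosomes 1, 12 and 17 (0.39, 0.38 and 0.36).

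The mean log2 ratios of 5 of 19 autosomes (26.3%) differed at an unadjusted exact permutation p of at most 0.05, and none passed after Benjamini-Hochberg adjustment over 19, which needs 4 autosomes at the smallest p. Chromosomes 3, 4 and 5 were lower in every MMTV-HRas tumor than in every MMTV-Her2/neu tumor. Chromosome 5 was at -0.11, -0.16, -0.07, -0.11 and -0.15 in Haras_An5_3RPT, Hras_An1_3, Hras_An2_3, Hras_An3_3 and Hras_An4_3 and at 0.30, 0.26, 0.04, -0.0021 and 0.41 in H2N1, H2N53, H2N61, H2N64 and H2NA. The difference was -0.32 for chromosome 5, -0.23 for chromosome 4 and -0.22 for chromosome 3 (exact permutation p = 0.00794, adjusted p = 0.0503 each). Under density peak centring these shrank to -0.19 (exact permutation p = 0.0238, adjusted p = 0.0905), -0.10 (p = 0.373, adjusted p = 0.483) and -0.09 (p = 0.00794, adjusted p = 0.0503), and chromosomes 4 and 5 then overlapped between the models. Without H2N53 and H2N61 the differences were -0.36, -0.21 and -0.19 (exact permutation, adjusted p = 0.17, 0.226 and 0.17).

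Chromosomes 2 and 7 differed the other way. Chromosome 2 was at 0.10, 0.15, 0.47, -0.05 and 0.42 in the MMTV-HRas tumors and at -0.42, -0.45, -0.02, 0.02 and -0.07 in the MMTV-Her2/neu tumors, in the order above. The groups overlapped through Hras_An3_3, and the difference of 0.41 had an exact permutation p of 0.0238 (adjusted p = 0.113). Chromosome 7 was at 0.10, -0.17, -0.05, -0.10 and -0.12 in MMTV-HRas tumors and at -0.41, -0.41, -0.23, -0.05 and -0.41 in MMTV-Her2/neu tumors, a difference of 0.23 (exact permutation p = 0.0476, adjusted p = 0.176). Under density peak centring the differences grew to 0.54 and 0.36, and for both the exact p was 0.00794 and the adjusted p 0.0503. They were 0.38 and 0.22 without H2N53 and H2N61 (exact permutation, adjusted p = 0.339 each). Between the pair scanned on the same day, the difference was 0.09 for chromosome 2, 0.15 for chromosome 7, -0.11 for chromosome 5, -0.41 for chromosome 4 and -0.13 for chromosome 3.

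Of chromosomes 6, 15 and 17, which were gained together in MMTV-HRas tumors, 15 had the lowest p. It was at 0.30, 0.62, -0.05, 0.73 and 0.43 in MMTV-HRas tumors and at 0.01, -0.04, 0.26, -0.03 and 0.12 in MMTV-Her2/neu tumors. The difference was 0.34 (exact permutation p = 0.0714, adjusted p = 0.194), and 0.47 under density peak centring (exact permutation p = 0.0317, adjusted p = 0.101). Chromosome 6 differed by 0.23 (exact permutation p = 0.206) and chromosome 17 by 0.12 (exact permutation p = 0.254), with overlap in both. Density peak centring gave 0.36 and 0.25 (exact permutation p = 0.103 and 0.0556). The chromosome 6 means of H2N61 and H2NA, 0.33 and 0.26, include the distal amplification described below. Without H2N64, chromosomes 3, 4, 5, 7 and 10 passed the adjusted threshold (exact permutation, adjusted p = 0.0302).

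**Figure D3:**
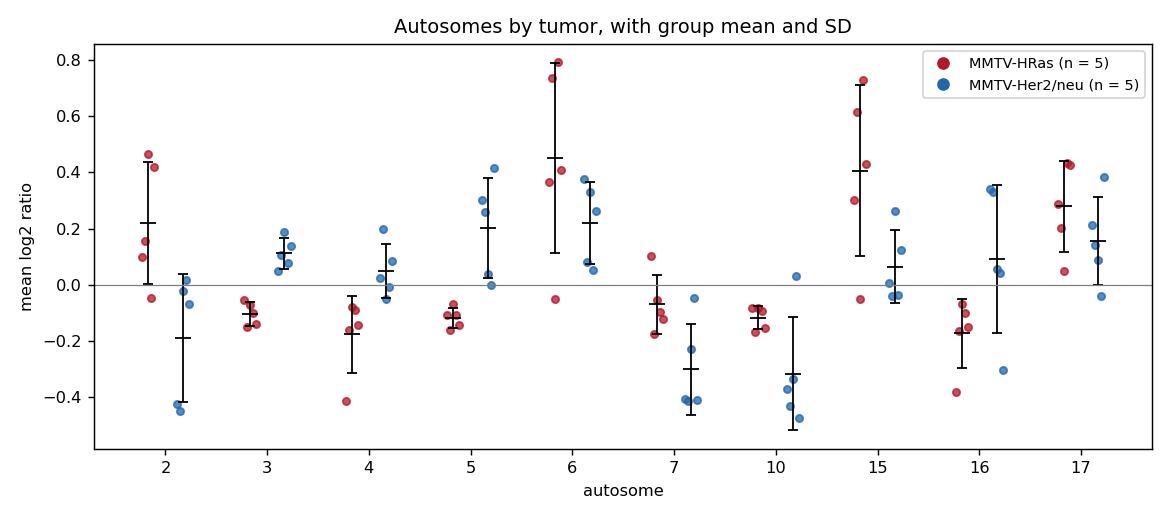
Mean log2 ratio of 10 autosomes in each MMTV-HRas (red) and MMTV-Her2/neu (blue) tumor, with black bars for the group mean and SD (n = 5 each). Chromosomes 3, 4 and 5 do not overlap between the models, and chromosomes 2, 6, 7, 10, 15, 16 and 17 do.

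At the level of bins and genes the picture was the same. None of the 2057 bins passed limma's test (Benjamini-Hochberg adjusted p at most 0.05, 0% called, lowest adjusted p = 0.0826), although 696 (33.8%) had an unadjusted p of at most 0.05, with 424 higher (20.6%) and 272 lower (13.2%) in MMTV-HRas tumors. Without H2N53 and H2N61, 366 bins had such a p and none passed. Bins of a chromosome moved together in these tumors, so they are not separate observations. With density peak centring 444 bins passed, 443 of them higher in MMTV-HRas tumors and 1 lower. Of these, 152 of the 156 bins of chromosome 2, 87 of 122 on chromosome 7, 70 of 132 on chromosome 6, 68 of 85 on chromosome 15 and 52 of 112 on chromosome 10 were called. With that centring the unadjusted split was 648 higher and 34 lower. With scan day as a fixed block over all 45 arrays the balance turned round, with 61 higher and 187 lower. None of 20093 autosomal gene names passed limma's adjusted test (lowest adjusted p = 0.146), and 4416 (22%) had an unadjusted p of at most 0.05.

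The largest copy number change of the 10 tumors was a high-level amplification of distal chromosome 6 in the MMTV-Her2/neu tumors H2N61 and H2NA. In H2NA it ran from chr6:139853015 to 149512282 (mm8), the last probe of the chromosome, over 164 probes and 9.66 Mb, with a mean log2 ratio of 3.31. In H2N61 the amplified stretch was broken into steps. Its segments of at least 1.0 began at 127262409, and the most distal run, from 143141871 to the same last probe, had a mean of 3.57 over 103 probes. Over the 164 probes of the stretch shared by both, H2N61 was at 3.09, H2N1 at 0.44, H2N53 at 0.23 and H2N64 at 0.08.

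The MMTV-HRas tumors had no step there. Their values over the 164 probes were 0.39, 0.77, -0.02, 0.82 and 0.40 in Haras_An5_3RPT, Hras_An1_3, Hras_An2_3, Hras_An3_3 and Hras_An4_3, and these were 0.03, 0.04, 0.03, 0.02 and -0.01 above the proximal part of the chromosome, which was taken to end before the first amplified segment of H2N61. In H2N61 and H2NA the stretch was 3.10 and 3.27 above that proximal part, which was at -0.01 and 0.04. Chromosome 6 was therefore raised along its whole length in 4 of 5 MMTV-HRas tumors, Hras_An2_3 being the exception, and at its distal end in H2N61 and H2NA. The MMTV-Her2/neu tumor H2N1 was also raised along the whole chromosome, with 99.8% of its probes gained. Its proximal part was at 0.36 and the stretch at 0.44, so the whole-length gain was not particular to MMTV-HRas tumors. Of the other 35 tumors of the series, C3TAg_8_RPT and C3TAg_7RPT reached the same range over the bins beyond 140 Mb, 3.54 and 2.99, and C3TAg_7RPT is the near match of H2N61. H2NA had its highest correlation with H2N61 (r = 0.80, and 0.71 without chromosome 6).

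The shared stretch held probes of 75 gene names. Bcat1, a branched-chain amino acid aminotransferase, was at 5.06 in H2N61 and 4.04 in H2NA, Lrmp at 4.91 and 4.20, and Pthlh, the parathyroid hormone-like hormone, at 4.14 and 3.47. Pde3a, a phosphodiesterase, was at 3.71 in H2N61 and 0.78 in H2NA, and the transcription factor gene Sox5 at 2.65 and 3.75. The highest single probe in H2NA was that of Mlstd1 (4.62).

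**Figure D4:**
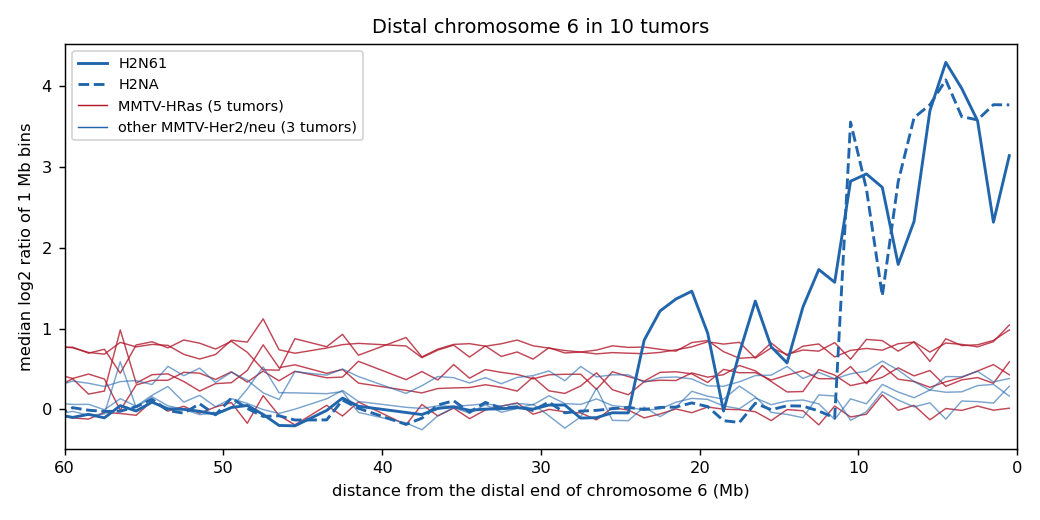
Median log2 ratio of 1 Mb bins over the distal 60 Mb of chromosome 6 against the distance from its distal end, for H2N61 (solid thick blue), H2NA (dashed blue), the other 3 MMTV-Her2/neu tumors (thin blue) and the 5 MMTV-HRas tumors (red). H2N61 and H2NA rise in the distal part, whereas each MMTV-HRas tumor keeps the level of the rest of its chromosome.

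No other run of segments 1.0 or more above or below 0 reached 20 probes in any of the 10 tumors. The 4 long runs were 3 in H2N61 and 1 in H2NA, all on distal chromosome 6, and Ccnd2, the cyclin D2 gene proximal to the shared stretch, was at 1.03 in H2N61 and -0.11 in H2NA. A further 103 short runs in MMTV-Her2/neu tumors, 100 of them downward, and 19 in MMTV-HRas tumors had under 20 probes. Without their largest probe, 86 and 17 of these had a mean under 1.0, so that 1 probe carried them past that limit. Of the 103, 71 were in H2N53. The probe of Metapl1 on chromosome 2 was such a case in MMTV-HRas tumors, at 2.72 in Haras_An5_3RPT, 3.14 in Hras_An2_3 and 2.98 in Hras_An4_3.

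In the tumors of its own model, the highest reading of a probe of the transgene's mouse gene was 0.09 for Hras1 and 0.47 for Erbb2. The mouse Hras1 gene (now Hras) has 1 probe (chr7:141042967-141043018, mm8), which read -0.04, -0.17, -0.06, 0.04 and 0.09 in the MMTV-HRas tumors. In H2N1, H2N53, H2N61, H2N64 and H2NA it read -0.56, -0.34, -0.29, -0.12 and -0.54. It followed the state of chromosome 7, which 4 of the MMTV-Her2/neu tumors had lost, and the difference of 0.34 ± 0.12 (SE) had a limma adjusted p of 0.161. Erbb2 (mean of 2 probes, chr11:98232924-98249099, mm8) was at -0.17, -0.42, 0.19, -0.0048 and 0.02 in MMTV-HRas tumors and at 0.13, -0.04, 0.09, 0.13 and -0.11 in MMTV-Her2/neu tumors. Its 2 probes disagreed in MMTV-Her2/neu tumors. The first read 0.22, 0.07, 0.42, -0.20 and 0.08, and the second 0.04, -0.15, -0.24, 0.47 and -0.30. Which part of each gene its transgene holds is not given in the sources used here, so these probes check no label.

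The genes of the cascade were read through 10 lists with 85 genes on the array, none of which passed limma's adjusted test. Of the 85, 12 were higher and 6 lower in MMTV-HRas tumors at an unadjusted p of at most 0.05, against 13.7 and 8.28% of all genes, and 1, Btc, was lower in MMTV-HRas tumors without overlap between the models, against 4.44% of all genes not overlapping (2.12% higher and 2.32% lower). The median difference of the listed genes was 0.03, beside 0.04 over all genes tested. Over all genes, density peak centring changed the unadjusted split from 2753 higher and 1663 lower to 5012 and 520. The directions given for single genes can thus depend on the centring. The genes named below have 1 to 4 probes unless stated.

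Among Ras genes and their regulators (11 of 13 listed were on the array, median difference 0.15), 4 were higher in MMTV-HRas tumors at that unadjusted threshold and none lower. Beside Hras1 these were 3 genes of chromosome 2. Rasgrp1, an exchange factor that activates Ras, was at 0.11, 0.46, 0.77, -0.01 and 0.73 in MMTV-HRas tumors and at -0.57, -0.47, -0.01, 0.15 and -0.04 in MMTV-Her2/neu tumors, highest in the tumors with chromosome 2 gained and lowest in those with it lost. Its difference was 0.60 ± 0.19 (SE; limma adjusted p = 0.146). Dab2ip and Spred1, which restrain Ras signalling, differed by 0.38 and 0.37 (limma adjusted p = 0.176 and 0.22). Nras on chromosome 3 was lower in MMTV-HRas tumors by 0.25 on the mean (0.02 ± 0.11 against 0.27 ± 0.15, SD; limma adjusted p = 0.238), and Nf1, whose product switches Ras off, was at -0.02 ± 0.24 and -0.11 ± 0.30.

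Of the Raf and MAP kinase genes described (7 of 7 on the array, median difference 0.25), 1 had an unadjusted p under the threshold. Map2k2 on chromosome 10, which encodes Mek2, was higher in MMTV-HRas tumors by 0.46 ± 0.15 (SE; limma adjusted p = 0.152). Its level was -0.06 ± 0.33 against -0.51 ± 0.06 (SD), so that it was low in all 5 MMTV-Her2/neu tumors, H2N64 included, and as low in Haras_An5_3RPT (-0.52). Braf on chromosome 6, with 7 probes, was at 0.36, 0.81, 0.01, 0.82 and 0.41 in MMTV-HRas tumors and at 0.42, 0.15, 0.07, 0.09 and 0.02 in MMTV-Her2/neu tumors (limma adjusted p = 0.25).

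The ErbB axis (16 of 18 on the array) had a median difference of -0.11, with 1 gene higher and 4 lower in MMTV-HRas tumors at the unadjusted threshold. Btc and Ereg, ligands of ErbB receptors that lie near each other on chromosome 5, differed by -0.38 and -0.41 (limma adjusted p = 0.147 and 0.15). Btc was at -0.13, -0.16, -0.02, -0.31 and -0.19 in MMTV-HRas tumors and at 0.29, 0.24, 0.06, 0.03 and 0.48 in MMTV-Her2/neu tumors, without overlap. Ptpn11, the phosphatase Shp2 that couples receptors to Ras, also lies on chromosome 5 and differed by -0.35 (limma adjusted p = 0.165). Errfi1, a feedback inhibitor of ErbB receptors on chromosome 4, differed by -0.51 (adjusted p = 0.146). The ligand gene Tgfa on chromosome 6 was the 1 higher in MMTV-HRas tumors, by 0.42 (adjusted p = 0.191). Egfr, Erbb3 and Grb2 differed by -0.03, 0.05 and 0.01.

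**Figure D5:**
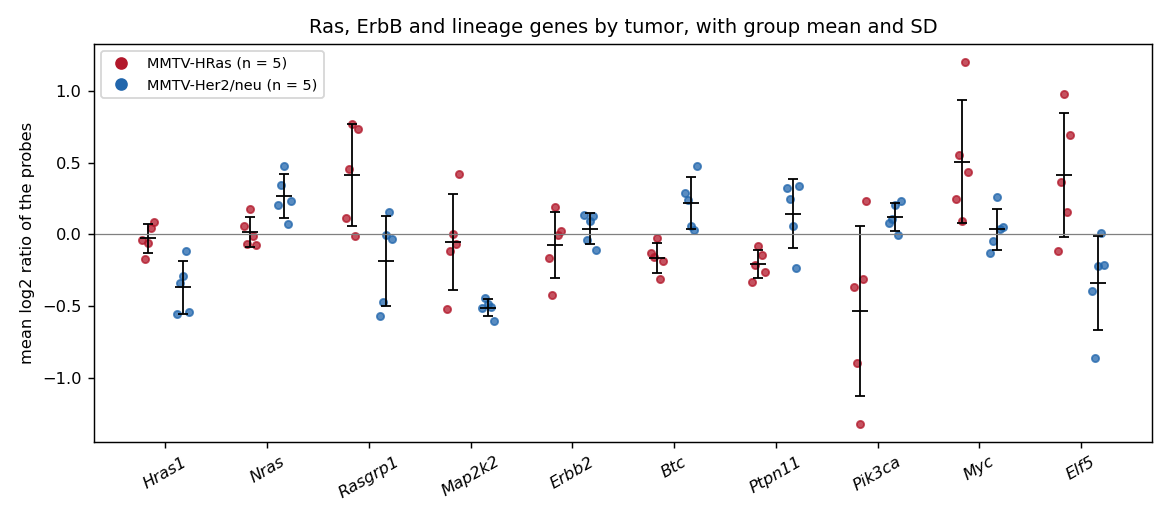
Mean log2 ratio of the probes of 10 genes in each MMTV-HRas (red) and MMTV-Her2/neu (blue) tumor, with black bars for the group mean and SD (n = 5 each). Btc does not overlap between the models, and Hras1 is lower in the MMTV-Her2/neu tumors apart from an overlap of H2N64 and Hras_An1_3. Erbb2 overlaps between the models and is lowest in Hras_An1_3 (-0.42).

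In the phosphoinositide 3-kinase list (11 of 12 on the array, median difference -0.05), Tsc2 on chromosome 17 was higher by 0.33 and Pik3ca, the catalytic subunit, lower by 0.66 in MMTV-HRas tumors (limma adjusted p = 0.207 and 0.155). The 2 probes of Pik3ca ranged from -1.32 in Hras_An2_3 to 0.23 in Hras_An4_3, although chromosome 3 was at -0.07 and -0.14 in those tumors.

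Myc, on the gained chromosome 15, has 1 probe, which was at 0.25, 0.56, 0.10, 1.20 and 0.44 in MMTV-HRas tumors and at -0.13, -0.04, 0.26, 0.04 and 0.05 in MMTV-Her2/neu tumors. It differed by 0.47 ± 0.18 (SE; limma adjusted p = 0.169), and it was the 1 of 4 Myc family genes on the array below the unadjusted threshold. Of the cell cycle genes (9 of 11 on the array), Ccne1 on chromosome 7, the cyclin E1 gene, was higher by 0.41 and Cdkn2a on chromosome 4, which encodes the inhibitors p16 and p19Arf, lower by 0.26 in MMTV-HRas tumors (limma adjusted p = 0.18 and 0.198). Cdkn2a was deleted in none of the tumors at the level of its 2 probes, which lay between -0.14 and 0.30. The single Ccnd1 probe ranged from -2.77 to 0.51 within MMTV-Her2/neu tumors and from -1.66 to 0.39 within MMTV-HRas tumors, a spread wider than that of its chromosome. Of the p53 pathway (5 of 5 on the array), Trp53 differed by 0.27 (0.02 ± 0.17 against -0.25 ± 0.10, SD; limma adjusted p = 0.214).

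In the mammary lineage list (9 of 11 on the array, median difference 0.14), Elf5 and Gata3 were higher in MMTV-HRas tumors at the unadjusted threshold, and both lie on chromosome 2. Elf5, a transcription factor of luminal progenitors and alveolar cells, was at -0.12, 0.37, 0.98, 0.16 and 0.69 in MMTV-HRas tumors and at -0.40, -0.86, -0.22, 0.01 and -0.21 in MMTV-Her2/neu tumors, a difference of 0.75 ± 0.21 (SE; limma adjusted p = 0.146). Gata3, which specifies luminal cells, differed by 0.49 (adjusted p = 0.162). The amplicon genes Met, Cav1, Cav2 and Wnt2 of proximal chromosome 6 differed by 0.22 to 0.39 and none of the 6 in that list, nor any of the 7 tumor suppressors on the array, was under the unadjusted threshold.

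Tumors of a model were only partly alike. Pearson's r over 2057 bins, which share the reference and the median centring, averaged 0.37 over the 10 pairs of MMTV-HRas tumors (-0.13 to 0.71) and 0.31 over the 10 pairs of MMTV-Her2/neu tumors (-0.02 to 0.85). Between the models it averaged 0.11 over 25 pairs (-0.16 to 0.38). The closest MMTV-HRas pair was Hras_An1_3 and Hras_An3_3. Without H2N53 and H2N61, the 3 remaining MMTV-Her2/neu pairs averaged 0.15.

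Segment boundaries inside autosomes were fewer in MMTV-HRas tumors, 50, 18, 90, 37 and 34, than in MMTV-Her2/neu tumors, with 129, 648, 114, 74 and 300. The means were 45.8 ± 27.2 and 253 ± 237 (SD, n = 5 each; two-sided exact permutation p = 0.0159), and the groups overlapped through Hras_An2_3 and H2N64. Without H2N53 and H2N61 the difference of -207 was -122 (exact permutation p = 0.0357). Segments of under 20 probes made up 40.6 to 56.5% of the segments of H2N1, H2N53, H2N61 and H2NA, 3.23% of those of H2N64 and 1.45 to 46.8% of those of MMTV-HRas tumors. When steps of at least 0.2 between segments of at least 50 probes were counted, a count defined after seeing the data, the numbers were 11, 0, 0, 2 and 0 in MMTV-HRas and 0, 0, 2, 34 and 0 in MMTV-Her2/neu tumors, in the order above (means 2.6 ± 4.77 and 7.2 ± 15, exact permutation p = 0.881). Nearly all of these steps were in Haras_An5_3RPT and H2N64, the pair scanned on the same day. With background correction by normexp the difference also missed the threshold (exact permutation p = 0.0952).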

How the data were processed

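The authors deposited Agilent Feature Extraction output for each array (version 9.5.1.1 per the file headers, 10.7 in the submitters' processing notes), with intensity values of both dyes after background subtraction, spatial detrending and linear dye normalization and a log10 ratio of Cy5 over Cy3 per spot, at positions of build mm8. They also deposited a table of called intervals with mean log2 ratios and counts of probes, used for 1 alternative. Columns of p-values and the tables of single models were not used.

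Log10 ratios were converted to log2 with the sign turned. Control spots and outlier spots were left out, spots of a probe were averaged, and each array was centred on its autosomal median (42235 probes, 40666 of them autosomal). Segments came from circular binary segmentation written in Python 3.11.15 (numpy 2.4.6, numba 0.67.0), where a split needed a statistic above 6 and a segment 5 probes. Bins of 1 Mb needed 3 probes and took the median ratio. Bins and gene means were tested with limma 3.58.1 in R 4.3.3, and single values with two-sided exact permutation tests over 252 assignments (scipy 1.17.1 for Fisher tests). The scripts were tested on simulated data.

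Over these 10 arrays, 96.9 to 99.8% of probes passed the scanner's test of signal over background, and the single-probe SD was 0.17 to 0.336. With 5 tumors a group, the number of arrays limits precision, and p-values measure the spread between these tumors. Models were taken from the labels. The direction was decided after values were seen. Members, gene lists and tests were chosen with earlier results of these data known. Genes were named by 3 rules: those of the lists, for each chromosome that differed (none passed), the gene of the most different probe in its most different bin, and the gene of the largest probe in each run of segments with a mean of 1.0 or more above or below 0, of which the long runs and 1 short run are named. Other genes of the distal chromosome 6 stretch were chosen after their values were seen. Symbols are those of the array. Some listed genes are not reported here and were left out of the lists' counts. Alternatives changed the centring, background, loess, dim probes, dyes, samples, blocks, bin size, thresholds and segmentation.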

Additional observations from a re-analysis of the deposited data

Results flagged for a closer look

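Of 54 sets of 5 values examined, 8 held a tumor whose gap to its nearest neighbour was over 0.71 of the range, a distance that chance gives in about 1 set of 20. Haras_An5_3RPT stood apart from the other MMTV-HRas tumors in 3 sets. Its lost share was 15.3%, against 0 to 0.243% in the others, it had 4 lost autosomes against 0, and its chromosome 4 was at -0.41, against -0.16 to -0.08. Its array lay on another slide than the other 4. Hras_An2_3 had 2 gained autosomes, against 5 to 6 in the other MMTV-HRas tumors. Chromosome 9 was at 0.20 in Hras_An1_3, against -0.14 to -0.05, and chromosome 14 at 0.42 in Hras_An4_3, against -0.17 to -0.07. Among MMTV-Her2/neu tumors, chromosome 10 was at 0.032 in H2N64, against -0.47 to -0.34, and chromosome 1 at -0.23 in H2N53, against 0.06 to 0.17. The cause of these gaps was not tested.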

How the results depend on the processing

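No paired analysis was possible because the labels give the tumors no replicate numbers that the 2 models share. Differences are MMTV-HRas minus MMTV-Her2/neu. With the dyes as labelled, the gained share differed by -16.4 and the lost share by 9.20 percentage points, the gained autosomes by -2.8, the lost autosomes by 0.8 and the gained percent of altered bins by -45.4, chromosomes 2, 3, 4, 5 and 7 by -0.41, 0.22, 0.23, 0.32 and -0.23, and Hras1 and Erbb2 by -0.34 and 0.12. Divided by the chromosome X mean, the altered share differed by 4.75 points and the gained percent of altered bins by 30.5. Erbb2 differed by 0.012 under density peak centring. Without H2N53 and H2N61 the lost share differed by -15.3. The breakpoints differed by -44.8 with normexp and by -4.6 between long segments. Bins called were 444 with density peak centring, 312 with all 45 arrays, 318 with slide and 222 with scan day as a random block, and 0 with scan day as a fixed block over all 45 arrays (248 at an unadjusted p of at most 0.05), an alternative added after seeing the data. Genes called were 478 with all 45 arrays, 13 with slide as a random block, and 0 with scan day as a random block (3371 at that unadjusted p) or as a fixed block (1237). With the fixed block, 61 bins were higher and 187 lower in MMTV-HRas tumors at that p, and 318 genes higher and 919 lower. The main setting had the opposite balance. Differences that moved by over 1.5 times on the same side of the threshold were the gained share, 15.3 points with density peak centring or the authors' intervals and 2.43 with normexp, the lost share (-6.56) and the lost autosomes (0) divided by the chromosome X mean, the gained autosomes, 2.6 with density peak centring or the authors' intervals, 2 with 50% of the probes or divided by the chromosome X mean, 1.2 with a split statistic over 8 or a threshold of 0.3 and 0 with normexp, and the breakpoints, -114 with a split statistic over 8 and -122 without H2N53 and H2N61. Chromosomes 3, 4, 5 and 7 also moved that far with density peak centring, to -0.09, -0.10, -0.19 and 0.36. The Hras1 difference reached 0.52 in 1 alternative. The altered share differed by -12.2 (normexp) to -1.70 points (density peak) beside the value above.

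Leaving out 1 tumor at a time, the gained share differed by 5.94 to 12.2 points (past the threshold without Hras_An2_3), the lost share by -21.1 to -13.3 (past it without H2N64), the gained autosomes by -0.15 (without H2N64) to 1.45 and the lost autosomes by -3.6 to -2.2 (past it without Haras_An5_3RPT or H2N64). The breakpoints differed by -252 to -108 and missed the threshold without any 1 of the 5 MMTV-HRas tumors (exact permutation p up to 0.0952). Called autosomes ran from 0 to 5, bins from 0 to 442 (442 without H2N64, 209 without Hras_An2_3, 146 without Hras_An3_3) and genes from 0 to 117 (117 without H2N64, 2 without Haras_An5_3RPT, 1 without Hras_An3_3). The gained percent of altered bins kept its side of the threshold in all 10, with differences of 43.0 to 53.7 points; it could not be computed with normexp or the authors' intervals, where a tumor had no altered bin. The altered share kept its side of the threshold in every setting run. The tests of recurrence made no call in any, but with so few tumors over 38 tests a single perfect split could not pass, so this is no sign of stability.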
